A study of Mus musculus with 3 samples.

Results

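The mitosis and spindle genes are 37 mouse genes whose products drive, check or mark cell division. They were taken by name, with no measured value in the rule, out of the 27677 genes on the design of a 2-colour Agilent mouse array, where they hold 62 spots. The liver array measured 36 of them, since the only spot of Kif2c was above background in neither channel there. All 37 were measured on the stomach array, and 13 have a listed spot in the authors' deposited table for lung.

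Tumours had arisen in AID Tg mice, which carry a transgene for AID (activation-induced cytidine deaminase), an enzyme that deaminates cytosine in DNA and is best known from antibody diversification in B cells. Each organ had 1 array, without a replicate or a dye swap. The liver array compared liver cancer with nontumor liver of the AID Tg mouse that bore it, and the stomach array gastric cancer with nontumor gastric tissue of its own AID Tg mouse, so tumour and control both carried the transgene. The lung array compared lung cancer of an AID Tg mouse with normal lung of a wild-type (Wt) mouse, so transgene and tumour cannot be told apart there. The promoter of the transgene, the age and strain of the mice and the number of animals behind each RNA are not given in the labels.

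Values are given by channel, as the log2 ratio of Cy5 over Cy3, because the sources disagree on direction. The labels put the tumour in Cy3 and the control in Cy5. In the authors' deposited table, however, every listed spot under the headings for genes up in tumours is brighter in Cy5, for liver (518 of 518 spots) and stomach (1660 of 1660) alike. By those headings Cy5 is likely the tumour channel, and by the dye labels every sign below turns. A gene is called Cy5-high or Cy3-high here at a difference of at least 2-fold, a log2 ratio of at least 1 in size; where a deposited list is called Cy5-high, its spots are brighter in Cy5 and its own limits hold. With 1 array per organ there is no test, and the error beside a ratio is the SD between the probes of the gene or, where a gene had 1 measured probe, the scanner software's error for that spot. An SD over 2 probes can be smaller than the scanner errors of those probes, so counts of ratios beyond their error mix unlike errors. In bulk tissue, fewer dividing cells and less RNA per cell cannot be told apart.

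Cells enter mitosis when cyclin B activates Cdk1, and the Aurora and Polo-like kinases then build the spindle with motor proteins of the kinesin family. The spindle checkpoint holds the cell until every chromosome is attached, after which the anaphase-promoting complex (APC/C) with its coactivator Cdc20 marks cyclins and the inhibitor of separase for destruction. Most of these genes are transcribed late in the cell cycle, under promoters known for CCAAT boxes, which NF-Y binds, and for a cell cycle genes homology region near the start site, while few cells divide in adult liver and lung and the gastric epithelium renews itself throughout life.

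Promoter sequence was at hand for 30 of the 37 members, from RefSeq on GRCm38.p6, as windows from 250 bases before to 50 bases after the annotated start. The windows are sequence alone, and no binding was measured in this study. Stretches of 120 bases that end at the start are shown for 7 members with spots in the lung list, picked after their matches were seen, to show the common arrangement and its exceptions. They run 5′ to 3′ along the gene, and capitals mark CCAAT or its reverse complement ATTGG, and TTTGAA or its reverse complement TTCAAA.
Ccnb2, chr9:70421555-70421674, minus strand: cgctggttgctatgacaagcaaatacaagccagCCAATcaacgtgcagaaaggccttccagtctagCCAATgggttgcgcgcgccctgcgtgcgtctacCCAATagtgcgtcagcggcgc
Cdk1, chr10:69352913-69353032, minus strand: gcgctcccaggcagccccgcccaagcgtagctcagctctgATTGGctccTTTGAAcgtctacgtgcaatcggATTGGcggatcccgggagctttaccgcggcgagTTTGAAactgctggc
Cdkn3, chr14:46760421-46760540, plus strand: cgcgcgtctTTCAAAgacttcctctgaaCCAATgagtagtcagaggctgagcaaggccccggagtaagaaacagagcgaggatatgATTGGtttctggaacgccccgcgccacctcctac
Ube2c, chr2:164769809-164769928, plus strand: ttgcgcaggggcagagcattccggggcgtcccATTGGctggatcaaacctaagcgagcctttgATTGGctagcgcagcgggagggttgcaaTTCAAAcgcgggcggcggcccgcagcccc
Cdca5, chr19:6084977-6085096, plus strand: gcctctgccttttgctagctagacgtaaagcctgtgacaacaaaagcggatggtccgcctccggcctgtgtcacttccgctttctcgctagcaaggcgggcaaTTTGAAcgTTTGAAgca
Kif23, chr9:61946800-61946919, minus strand: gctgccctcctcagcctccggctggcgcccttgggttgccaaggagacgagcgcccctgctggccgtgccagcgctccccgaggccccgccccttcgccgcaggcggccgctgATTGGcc
Mad2l1, chr6:66535101-66535220, plus strand: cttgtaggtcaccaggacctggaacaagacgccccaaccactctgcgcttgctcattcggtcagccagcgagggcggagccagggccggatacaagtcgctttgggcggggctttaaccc
Ccnb2 holds 3 CCAAT boxes in this stretch, Cdk1 2 boxes and 2 TTTGAA matches, Cdca5 2 TTTGAA matches without a box, and Mad2l1 neither. Across the 30 windows, on either strand, CCAAT occurred in 25 members (83.3%), against 41.1% of 27025 genes with a window. The letters TTTGAA or TTCGAA of the homology region occurred in 24 members (80.0%), against 21.7% of those genes, and 22 members held both motifs. TTTGAA alone was in 23 members (76.7%, against 20.2% of genes) and TTCGAA in 3 (10% against 1.8%). An E2F motif, TTTCGCGC or TTTGGCGC, was found in 1 member, Cdk1 (3.3% against 0.9% of genes). TTCGAA reads the same on both strands, and a CCAAT box and TTTGAA can share only a base at their ends.

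**Figure D1:**
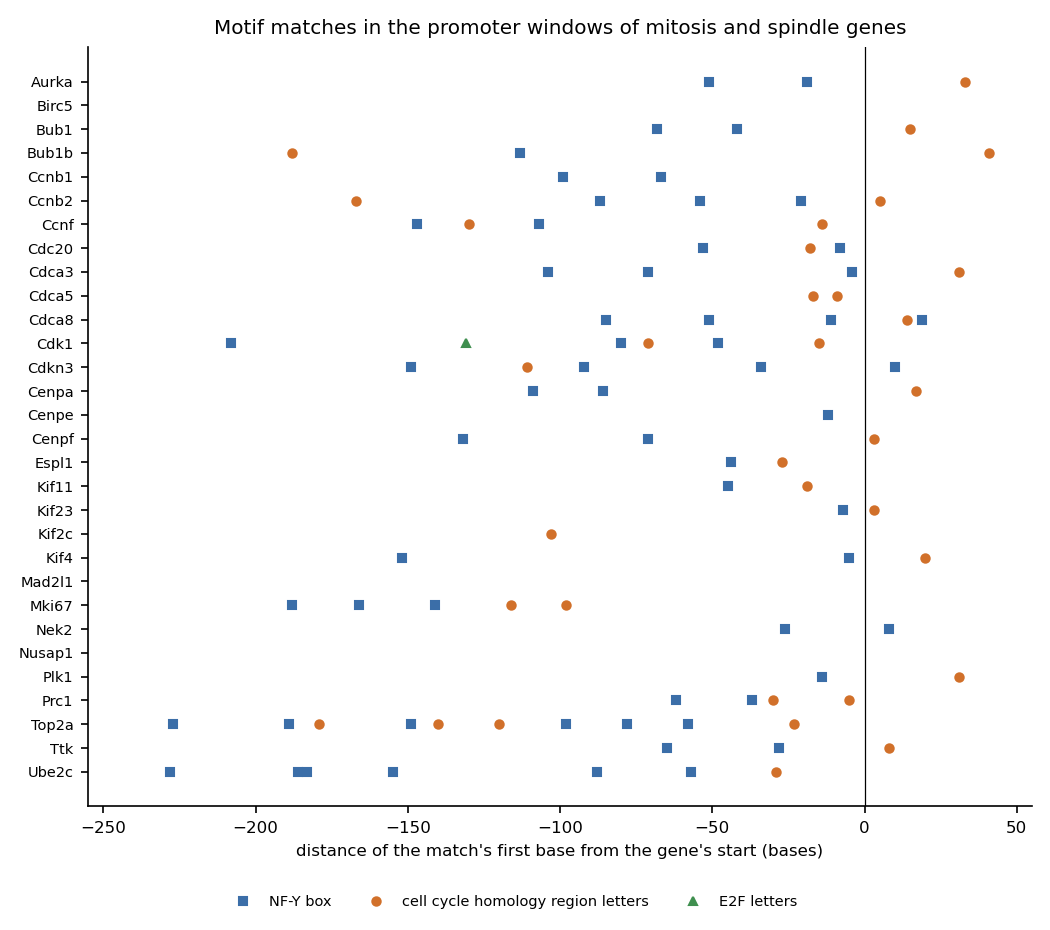
Motif matches on either strand in the promoter windows of 30 members (rows), by the distance of the match's first base from the annotated start, in bases; squares are CCAAT boxes (NF-Y box), circles TTTGAA or TTCGAA (cell cycle homology region letters), triangles E2F letters. Prc1 has 2 annotated starts and its matches are drawn from each; Birc5, Mad2l1 and Nusap1 have no match, and most matches of the others lie within 100 bases of the start.

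Within the shorter span from 100 bases before to 50 after the start, 22 of 30 members (73.3%) held CCAAT, against 26.3% of genes, and 22 held TTTGAA or TTCGAA, against 9.9%. The median stomach log2 ratio was 0.66 over the 24 members with TTTGAA or TTCGAA and 0.84 over the 6 without, with ranges of 0.35 to 1.53 and 0.53 to 1.13 that overlapped. It was 0.74 over the 25 with CCAAT (range 0.35 to 1.53) and 0.53 over the 5 without (range 0.40 to 1.13).

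On both arrays the labelled organ was borne out by its markers. The summed normalized signal of the hepatocyte markers was 181777 in Cy3 and 142511 in Cy5 on the liver array, against 3664 and 2349 on the stomach array, and that of the gastric gland markers was 518451 and 147211 on the stomach array, against 8912 and 10680 on the liver array. At least 82.3% of gene spots were well above background in each channel of either array. No member spot was flagged as an outlier or saturated on either array.

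In stomach, every member had a ratio above 0. The median log2 ratio over the 37 members was 0.74, a 1.67-fold higher signal in Cy5, with quartiles of 0.48 and 1.0. All measured genes together had a median of 0.001, and 50.2% of them lay above 0. At 2-fold or more, 10 of 37 members (27.0%) were Cy5-high, where 0.873% of all genes were, and 0 members were Cy3-high, where 1.41% of genes were. By the scanner software's ratios, which differ in both background correction and dye normalization, the count was 23 members, the share of all genes 4.32% and the median of the members 1.24. Of the 37, 28 exceeded 0.46, the 95th percentile of all genes, and 27 had a ratio larger than their own error.

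**Figure D2:**
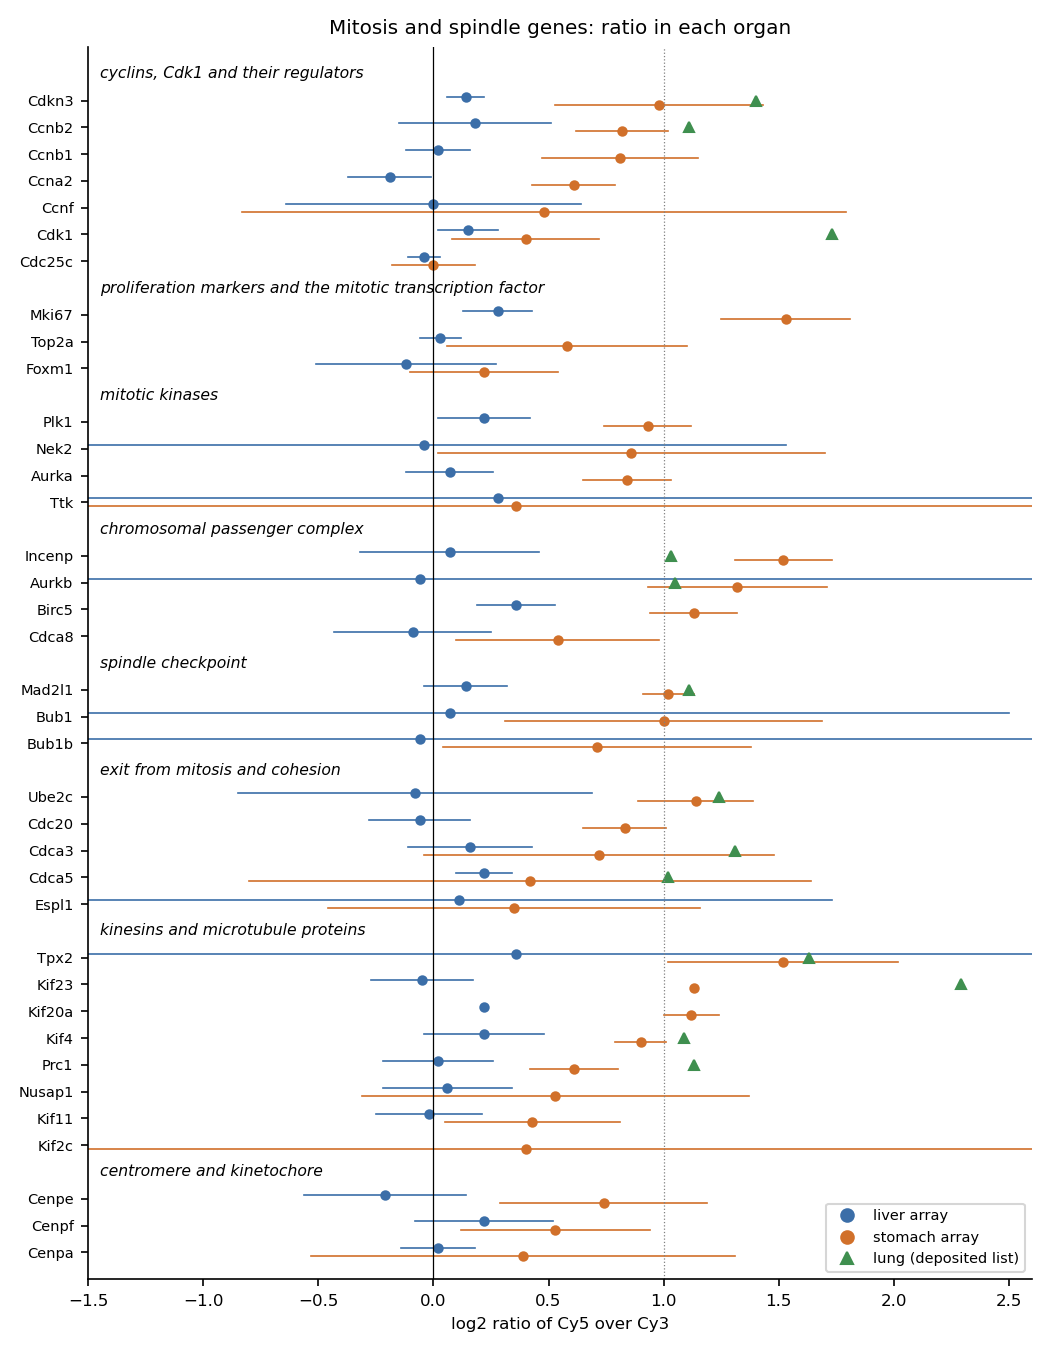
Log2 ratio of Cy5 over Cy3 (horizontal axis) of each member, grouped by role, on the liver array (blue), the stomach array (orange) and, for listed members, as the mean of the listed lung spots (green triangles). Lines show the error of each ratio (SD over the probes of a gene, or the scanner error where there was a single probe), clipped at the axis where the error is larger; the dotted line is 2-fold, and the stomach points lie at or right of 0 while the liver points gather around it.

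In liver, the same genes sat near the middle of the array. The median log2 ratio over 36 members was 0.06 (1.04-fold), with quartiles of -0.04 and 0.19, against 0.011 for all genes. Above 0 were 23 members (63.9%), against 52.9% of genes. No member reached 2-fold, a size that 0.152% of all genes reached as Cy5-high and 0.0703% as Cy3-high. Just 8 of the 36 ratios were larger than their own error, 7 of them above 0. Of the 17 members with several measured probes, 10 had probes on both sides of 0. Above the 90th percentile of all genes, 0.22, were 8 members, and above the 95th, 0.30, were 2. The members ran from Cenpe at -0.21 ± 0.35 (SD, 2 probes) to Birc5 at 0.36 ± 0.17 (scanner error) and Tpx2 at 0.36 ± 2.99 (scanner error). Members were dim in liver, with a median log2 brightness of 6.78 against 7.14 for all genes. For 5 of them the Cy3 signal was not well above background. At such dim signals a ratio near 0 does not show equal levels. The liver median was 0.08 with a background offset of 10 and 0.21 by the scanner software's ratios.

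The chromosomal passenger complex, which corrects faulty attachments of chromosomes and later steers cytokinesis, had the highest median of the 8 roles in stomach, 1.23, and 3 of its 4 genes were Cy5-high at 2-fold. Incenp, the scaffold of the complex, gave normalized signals of 489 in Cy3 and 1400 in Cy5 in stomach, and 175 and 184 in liver. Its channels thus stood apart in stomach, by a log2 ratio of 1.52 ± 0.21 (scanner error; 2.86-fold), and lay together in liver, at 0.07 ± 0.39 (scanner error). Aurkb, the kinase of the complex, read 133 and 333 in stomach and 71.8 and 68.7 in liver, where its Cy3 signal was not well above background. That is a log2 ratio of 1.32 ± 0.39 (scanner error; 2.50-fold) in stomach. Birc5 (survivin), a subunit that docks the complex on chromosomes, read 1442 and 3164 in stomach and 998 and 1281 in liver. Its Cy5 signal was the higher on both arrays, by 1.13 ± 0.19 in stomach and 0.36 ± 0.17 in liver (scanner errors), and its liver spot had the smallest scanner p-value of any member spot there, 0.028 from the authors' scanner files, a measurement error of 1 spot. Cdca8 (borealin), the remaining subunit, had a mean of 0.54 ± 0.44 (SD, 3 probes) in stomach and -0.09 ± 0.34 (SD, 3 probes) in liver, and its stomach probes ran from 0.10 to 0.98.

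Spindle checkpoint genes, which signal unattached chromosomes, had a stomach median of 1.0. Mad2l1, which binds and holds back Cdc20, read 110 in Cy3 and 223 in Cy5 in stomach and 91.2 and 100 in liver. Its stomach probes lay close together, at 0.94 and 1.1, for a mean of 1.02 ± 0.11 (SD, 2 probes; 2.02-fold), against 0.14 ± 0.18 (SD, 2 probes) in liver. Bub1, a kinase of the kinetochore, read 98.4 and 197 in stomach and 74.4 and 77.9 in liver, with a stomach ratio of 1.0 ± 0.69 (scanner error), right at the threshold. Bub1b, its relative in the complex that inhibits Cdc20, stayed under 2-fold at 0.71 ± 0.67 (scanner error) in stomach. In liver the Cy3 signals of Bub1 and Bub1b were not well above background.

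**Figure D3:**
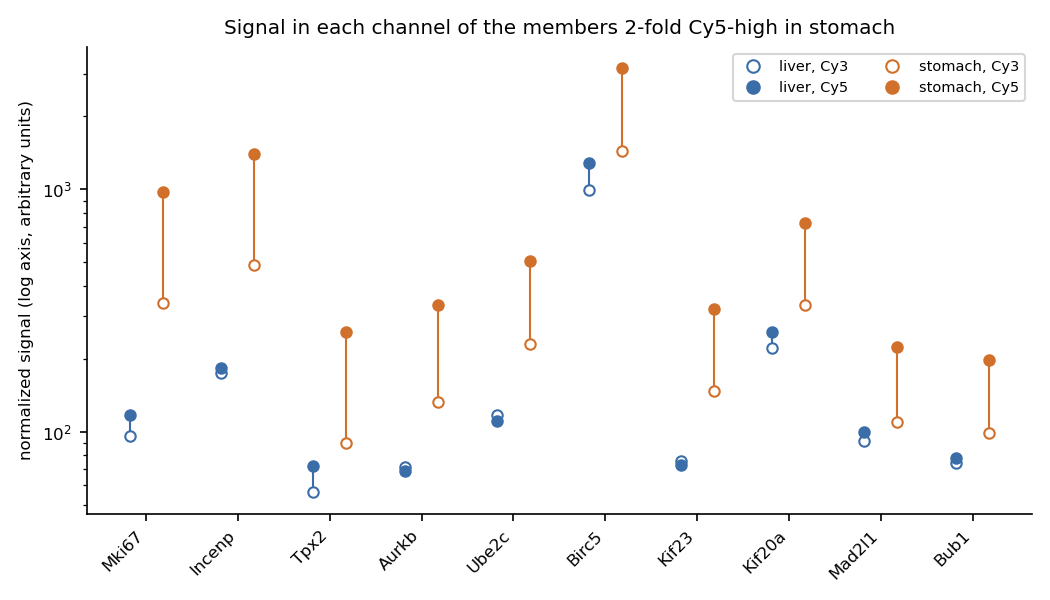
Normalized signal (vertical log axis, arbitrary units) in Cy3 (open) and Cy5 (filled) of the 10 members that were 2-fold Cy5-high in stomach, on the liver (blue) and stomach (orange) arrays. By this choice each filled point lies at 2-fold or more above its open one in stomach. In liver the points of a gene lie closer together, and are furthest apart for Birc5 (998 and 1281) and Tpx2 (56.2 and 72.1). The liver Cy3 signals of Aurkb, Bub1 and Tpx2 were not well above background. Signals are not comparable between genes.

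Among the kinesins and other microtubule proteins, 3 of 8 were Cy5-high at 2-fold in stomach and the median was 0.76. Tpx2, which activates Aurora A on spindle microtubules, read 89.9 in Cy3 and 258 in Cy5 in stomach, a ratio of 1.52 ± 0.50 (scanner error; 2.87-fold), and 56.2 and 72.1 in liver. Its liver Cy3 signal was not well above background, so after loess the liver fold is given as at least 1.23. Kif23, a motor of the central spindle, had signals of 147 and 321 in stomach and 75.8 and 73.1 in liver. Both stomach probes gave nearly the same ratio, 1.12 and 1.14 (1.13 ± 0.01, SD, 2 probes), while the liver mean was -0.05 ± 0.22 (SD, 2 probes). Kif20a, which carries the passenger complex to the central spindle, read 333 and 724 in stomach and 222 and 259 in liver, or 1.12 ± 0.12 and 0.22 ± 0.01 (SD, 2 probes each). Scanner errors of single probes were larger than such SDs, 0.39 and 0.31 for the Kif23 probes in stomach. For the Kif20a probes in liver they were 0.42 and 0.22. Kif4, a chromosome-bound motor, was under the threshold at 0.90 ± 0.11 (SD, 2 probes) in stomach, as was Prc1, which bundles the microtubules of the central spindle, at 0.61 ± 0.19 (scanner error). Nusap1, another microtubule bundler, had 1 stomach probe at 1.12 and the other at -0.07, and a mean of 0.53 ± 0.84 (SD, 2 probes). For Kif2c, which takes microtubules apart, and Kif11, which pushes the spindle poles apart, the stomach Cy3 signal was not well above background, and the stomach fold was at least 1.32 and at least 1.35. Those folds rest on the loess step and are not firm lower bounds. With median centring in place of loess the stomach log2 ratio was -0.01 for Kif2c and 0.13 for Kif11, and the liver ratio of Tpx2 was 0.03. Scanner errors of 3.05 (Kif2c in stomach) and 2.99 (Tpx2 in liver) were also larger than the ratios.

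Mki67, the gene of the proliferation marker Ki-67, had the highest stomach ratio of the 37. It read 339 in Cy3 and 979 in Cy5 in stomach, and 96.2 and 117 in liver. The stomach probes gave 1.33 and 1.73, a mean of 1.53 ± 0.28 (SD, 2 probes; 2.89-fold), above the liver mean of 0.28 ± 0.15 (SD, 2 probes). Its brighter stomach spot had the smallest scanner p-value of any member spot in the deposited files, 1.97e-17. Top2a, the topoisomerase that untangles sister chromatids, had a mean of 0.58 ± 0.52 (SD, 3 probes) in stomach, from probes at 0.18 to 1.16, and 0.03 ± 0.09 (SD, 2 probes) in liver. Foxm1, the transcription factor of the late cell cycle genes, read 194 and 226 in stomach and 181 and 167 in liver, and neither ratio, 0.22 ± 0.32 and -0.12 ± 0.39 (scanner errors), exceeded its error.

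The mitotic kinases had a stomach median of 0.85 and none reached 2-fold, although 3 of the 4 came close. Plk1, the Polo-like kinase, read 585 in Cy3 and 1113 in Cy5 in stomach and 413 and 480 in liver, or 0.93 ± 0.19 and 0.22 ± 0.20 (scanner errors). Aurka, the Aurora kinase of the spindle poles, read 571 and 1020 in stomach and 450 and 472 in liver, or 0.84 ± 0.19 and 0.07 ± 0.19 (scanner errors). Nek2, a centrosomal kinase, was at 0.86 ± 0.84 (scanner error) in stomach with signals of 86.3 and 157. The stomach ratios of Plk1 and Aurka were several times their errors, while that of Nek2 was about as large as its own. Ttk (Mps1), the kinase that starts the checkpoint signal, was dim on both arrays, with a stomach fold of at least 1.29 and a liver fold of at least 1.21 after loess. With median centring its log2 ratios were 0.00 and -0.05, so no channel can be called the higher for Ttk.

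Genes for the exit from mitosis and for cohesion had a stomach median of 0.72, and Ube2c alone was 2-fold Cy5-high. Ube2c, the E2 enzyme that starts ubiquitin chains for the APC/C, read 231 in Cy3 and 508 in Cy5 in stomach and 117 and 111 in liver, or 1.14 ± 0.25 and -0.08 ± 0.77 (scanner errors). Cdc20 read 671 and 1195 in stomach and 349 and 334 in liver, or 0.83 ± 0.18 and -0.06 ± 0.22 (scanner errors). For both, the channels differed beyond their error in stomach and overlapped in liver. Cdca3, a trigger of the degradation of the mitosis inhibitor Wee1, had stomach probes at 0.19 and 1.26 (mean 0.72 ± 0.76, SD, 2 probes). Cdca5 (sororin), which protects sister cohesion, had probes at -0.45 and 1.28 (mean 0.42 ± 1.22, SD, 2 probes). Espl1 (separase), the protease that cuts cohesin, was at 0.35 ± 0.81 (scanner error).

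None of the 7 cyclins, Cdk1 and their regulators was 2-fold in stomach, where their median was 0.61. Cdkn3, a phosphatase that acts on cyclin-dependent kinases, was nearest, with signals of 115 in Cy3 and 227 in Cy5 and a ratio of 0.98 ± 0.45 (SD, 2 probes), just under the threshold as Bub1 was just at it. Ccnb2 read 424 and 749 in stomach and 195 and 221 in liver, or 0.82 ± 0.20 and 0.18 ± 0.33 (scanner errors). Ccnb1, the main partner of Cdk1 at mitotic entry, was at 0.81 ± 0.34 (SD, 3 probes) in stomach and 0.02 ± 0.14 (SD, 2 probes) in liver. Ccna2, the cyclin of S phase and G2, read 864 and 1316 in stomach and 649 and 567 in liver, at 0.61 ± 0.18 and -0.19 ± 0.18 (scanner errors). The opposite signs depend on the dye normalization, since the liver ratio was 0.12 with median centring. Cdk1 itself was at 0.40 ± 0.32 (SD, 2 probes) in stomach and 0.15 ± 0.13 (SD, 2 probes) in liver. Ccnf, whose protein marks substrates for destruction in G2, was at 0.48 ± 1.31 (scanner error) in stomach. Cdc25c, the phosphatase that releases Cdk1, had a stomach ratio of 0.00 ± 0.18 (SD, 2 probes), at the middle of all genes, with 158 in Cy3 and 159 in Cy5.

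The centromere and kinetochore genes had the lowest stomach median of the roles, 0.53. Cenpe, a kinetochore motor, read 144 in Cy3 and 240 in Cy5 in stomach and 137 and 118 in liver, with a stomach mean of 0.74 ± 0.45 (SD, 3 probes). Cenpf, a large protein of the outer kinetochore, was at 0.53 ± 0.41 (SD, 2 probes) in stomach and 0.22 ± 0.30 (scanner error) in liver. Cenpa, the histone variant that marks centromeres, had stomach probes on both sides of 0, at 1.04 and -0.26, and a mean of 0.39 ± 0.92 (SD, 2 probes). The Cenpa probes start 5150 bases apart in the coordinates of the scanner files, for which no source used here names a build, and those of Nusap1 and Cdca5 start 1759 and 1223 bases apart.

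Probes of a member often disagreed in stomach. The median SD between probes was 0.39 over the 18 members with several measured probes, against 0.14 over 8047 genes. Most genes lay nearer 0 than the members, with quartiles of -0.13 and 0.13 over all genes. No comparison was made with genes of like ratio or brightness. Of these 18 members, 14 had all measured probes above 0, and Cdc25c, Cdca5, Cenpa and Nusap1 had measured probes on both sides. Cdkn3 and Kif11, counted among the 14, each had a further probe below 0, at -0.37 and -0.27. Those probes were left out because neither channel was well above background. In liver the medians were 0.16 for members and 0.12 for 8142 genes. The brighter 18 members of the stomach array had a median ratio of 0.83, and the dimmer 19 of 0.58. By the scanner software's ratios the order was the other way, 1.01 and 1.45.

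The authors' deposited table lists, for liver and stomach, spots with a scanner p-value of at most 0.01. In stomach 31 of the 62 member spots were under that value, against 7.40% of all gene spots. In the authors' deposited table, 27 of the 37 members (73.0%) had a spot in the stomach Cy5-high list, which held 5.17% of all genes. No member had a spot in its stomach Cy3-high list, which held 4.32% of genes. For liver the authors' deposited table listed 0 members on either side, where it listed 1.75% of genes as Cy5-high and 1.36% as Cy3-high. When every spot of a gene had to be listed, 16 members remained on the stomach list of the authors' deposited table, as did 2.79% of all genes.

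Set member by member, the stomach ratio was above the liver ratio for all 36 members measured on both arrays, as it was for 48.9% of all genes. The difference had a median of 0.74, ran from 0.04 for Cdc25c to 1.45 for Incenp, and exceeded the combined error of the arrays for 20 members. It reached 1 for 6 members (Incenp, Aurkb, Mki67, Ube2c, Kif23 and Tpx2), a size that 0.909% of genes reached. For Aurkb and Tpx2 the liver Cy3 signal was not well above background, so their differences rest on a liver ratio that is not settled. The other 4 are among the 30 members with both channels well above background on both arrays. For Ccnb1, Top2a, Kif11, Cenpe and Cenpf the arrays measured different sets of probes, so their differences do not compare like probes. This contrast rests on 1 array per organ and has no test.

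The level of the members in each channel also differed between the organs. In Cy5 the normalized signal was higher in stomach than in liver for 35 of 36 members, against 51.4% of all genes. The median was 2.37-fold, and 22 members were at least 2-fold higher, as were 5.22% of all genes. In Cy3 the signal was higher in stomach for 35 of 36 too, against 52.4% of genes, but with a median of 1.42-fold. Only 3 members were at least 2-fold higher in Cy3, a share not far from the 5.11% of genes. Mki67 had the largest difference in both channels, a log2 difference of 3.06 in Cy5 and 1.82 in Cy3. Ccnf was the exception in both, at -0.17 and -0.66. Arrays were scaled to a common distribution of signals before this comparison.

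Lung values come only from the authors' deposited table, whose lung lists start at 2-fold, and the lung scanner values were not analysed here. There, 13 of the 37 members (35.1%) had a Cy5-high spot, against 6.84% of all genes on the design, and 0 had a Cy3-high spot, against 12.4% of genes. When every spot of a gene had to be on the Cy5-high lung list of the authors' deposited table, 7 members remained, as did 3.99% of genes, and with 1 spot at 3-fold or more 4 members did, as did 3.19% of genes. The listed members span several roles: Cdk1, Ccnb2 and Cdkn3 among the cyclins and regulators, Aurkb and Incenp of the passenger complex, Mad2l1 of the checkpoint, Ube2c, Cdca3 and Cdca5 of the exit and cohesion genes, and Kif23, Kif4, Prc1 and Tpx2 of the microtubule proteins. The remaining 24, among them Mki67, Birc5, Top2a, Plk1, Aurka and all 3 centromere genes, had no listed lung spot, which bounds nothing about sizes under 2-fold or about spots left off for another reason.

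Kif23 had the largest listed lung ratios among the members. Its spots read 664 in Cy3 and 3060 in Cy5, and 739 and 3820, in the authors' deposited table, log2 ratios of 2.20 and 2.37 (4.60-fold and 5.16-fold). Cdk1 followed with 298 and 990 in the authors' deposited table, a log2 ratio of 1.73 at 1 of its 2 spots. For Tpx2 the authors' deposited table gave 283 and 878, a log2 ratio of 1.63. Cdkn3 was listed at 1.60 and 1.21, Cdca3 at 1.31 and Ube2c at 1.24 in the authors' deposited table. The other 7 members lay between 1.02 (Cdca5) and 1.13 (Prc1) in the authors' deposited table, close to where its lists begin. The median over the 15 listed spots of these members was 1.21 in the authors' deposited table, below the median of 1.52 over its whole lung Cy5-high list.

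The spots listed for lung were also brighter in Cy5 in stomach. By the scanner software's ratios, all 15 lung-listed member spots had a stomach ratio above 0, with a median of 1.62 (range 0.67 to 2.24), beside a median of 1.21 (range 1.02 to 2.37) for the same spots in the authors' deposited table for lung. In liver the same spots had a median of 0.19. After loess, 55 of the 59 member probes measured in stomach lay above 0, listed for lung or not. A stomach ratio above 0 was thus not particular to the 15 spots listed for lung. The count of 55 depends in part on the filter, since some probes were kept through Cy5 alone. The 3 member probes left out, well above background in neither channel, lay below 0 (-0.37 for Cdkn3, -0.27 for Kif11 and -0.04 for Espl1). The lung ratio was the higher at 5 spots, those of Kif23, Cdk1, Prc1 and Ccnb2, and the lower at 10. Because a spot had to pass 2-fold to be listed for lung, and not for stomach, the medians are a description of listed spots only. Listed for both stomach and lung in the authors' deposited table were 12 members, 44.4% of the stomach-listed and 92.3% of the lung-listed, and only Cdk1 was listed for lung and not for stomach. Over all genes in the authors' deposited table, 575 were listed Cy5-high for both, 40.2% of the stomach-listed and 30.4% of the lung-listed. Listed for neither in the authors' deposited table were Bub1b, Ccnf, Cdc25c, Espl1, Foxm1, Kif11, Kif2c, Nek2 and Ttk.

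**Figure D4:**
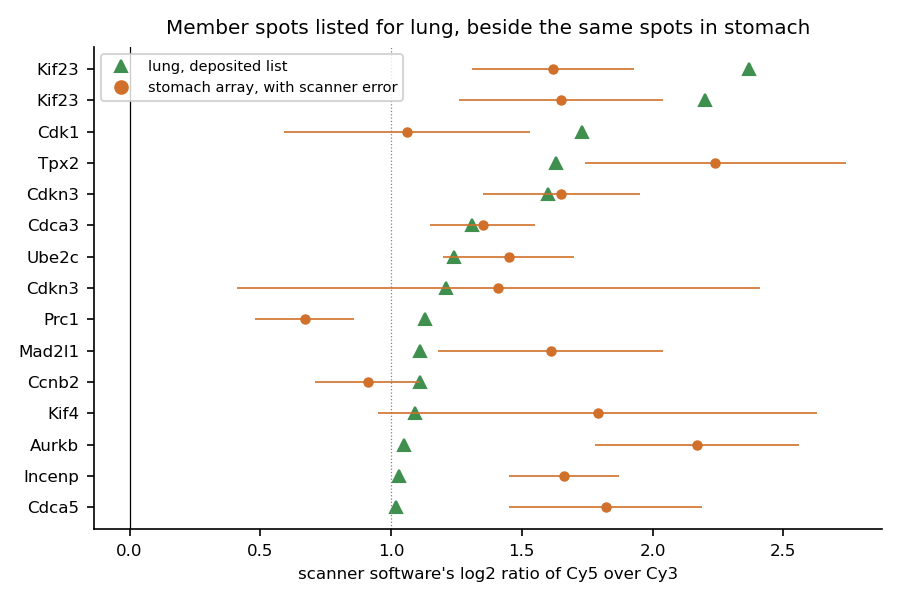
Scanner software's log2 ratio of Cy5 over Cy3 (horizontal axis) at the 15 member spots in the lung Cy5-high list of the authors' deposited table (green triangles) and at the same spots on the stomach array (orange, with the scanner error). Kif23 stands furthest right in lung at 2.20 and 2.37, and Aurkb, Incenp and Cdca5 lie near the 2-fold line in lung but at 1.66 to 2.17 in stomach.

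Other genes of cell division shared the stomach pattern to different degrees. Of 70 measured further mitotic genes, 67 had a stomach ratio above 0, 5 were 2-fold Cy5-high and the median was 0.44. Their highest were Sgo1, which shields centromeric cohesion, at 1.38 ± 0.33 (scanner error), Cks2, a small Cdk-binding protein, at 1.36 ± 0.11 (SD, 2 probes), and Pbk, a mitotic kinase, at 1.34 ± 0.35 (scanner error). Their lowest was Pttg1 (securin), the inhibitor of separase, at -0.52 ± 0.17 (scanner error), followed by Ccnb3 and Cdc25a, both at -0.02. In the authors' deposited table Pttg1 was the only one of these genes listed as Cy3-high for stomach. For lung, 16 of the 71 on the design were listed there as Cy5-high, where 6.84% of all genes were. As Cy3-high for lung the authors' deposited table listed 7 of the 71, Pttg1 again among them. That is a smaller share than the 12.4% of all genes.

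DNA replication genes came nearest to the members, with a stomach median of 0.66 and 10 of 44 at 2-fold Cy5-high. Mcm4, a subunit of the replicative helicase, was highest at 1.39 ± 0.21, followed by Rrm1, a subunit of ribonucleotide reductase, at 1.33 ± 0.22, and Prim1, the primase, at 1.32 ± 0.27 (scanner errors). Gmnn (geminin), which blocks re-licensing of origins, was lowest at -0.47 ± 0.17 (scanner error). The 15 APC/C genes, whose enzyme destroys many of the members' proteins, had a median of 0.11 and none at 2-fold, and ran from Anapc13 at -0.92 ± 0.18 to the APC/C inhibitor Fbxo5 at 0.86 ± 0.45 (scanner errors). Condensin and cohesin genes had a median of 0.26 with 1 of 17, Ncapg2, at 2-fold (1.17 ± 0.31, scanner error). The 18 G1 cyclin, E2F and pocket protein genes had a median of 0.31 and none at 2-fold, with Ccnd1 (cyclin D1) highest at 0.96 ± 0.19 (scanner error). Among 7 CDK inhibitors Cdkn1c (p57) was 2-fold Cy3-high at -1.69 ± 0.27 (scanner error) and Cdkn2b (p15) lay at -0.86 ± 0.19 (scanner error). In liver the medians of all these lists lay between 0.00 and 0.09, and Ccnd1 at 1.11 ± 0.20 (scanner error) was the only gene of them at 2-fold.

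**Figure D5:**
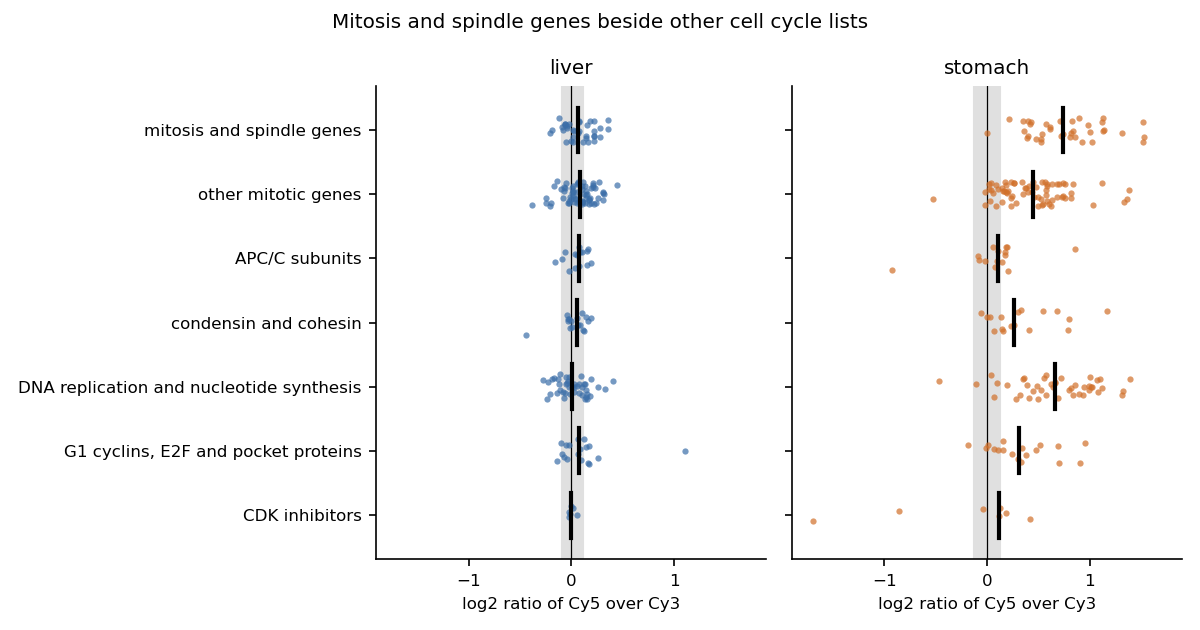
Log2 ratio of Cy5 over Cy3 (horizontal axis) of each measured gene (points, spread vertically for sight) on the liver (left) and stomach (right) arrays, for the members and 6 further cell cycle lists. Black bars are list medians and the grey band is the middle 50% of all genes, from -0.09 to 0.11 in liver and from -0.13 to 0.13 in stomach; the members have the rightmost bar in stomach, at 0.74, and a bar inside the band in liver, at 0.06.

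Markers of several cell types also differed between the channels of the stomach array, in both directions. The gastric gland markers were lower in Cy5 (median log2 ratio -1.93, 9 of 15 Cy3-high at 2-fold, summed signal 518451 in Cy3 and 147211 in Cy5), as were the squamous epithelium markers (-1.62, 9 of 12, 37750 and 6929) and the smooth muscle markers (-1.26, 5 of 10, 17763 and 5633). Going the other way at 2-fold were Tff2 of the gastric list, at 1.17 ± 0.19, and Ivl of the squamous list, at 1.16 ± 0.66 (scanner errors). Over all genes in stomach, 1.41% were Cy3-high and 0.873% Cy5-high. Intestinal epithelium markers were higher in Cy5 (1.79, 6 of 11 Cy5-high, 16510 and 98328), with Sis the lowest at -0.07 ± 0.19 (scanner error). Markers of T cells, which can divide in inflamed tissue, differed less, with a median of 0.17, 0 of 12 at 2-fold and summed signals of 1415 and 1553. In liver the hepatocyte markers had a median of -0.23 and 0 of 10 at 2-fold. For lung, the authors' deposited table listed 10 of 12 lung epithelium markers, 9 of 12 T cell markers, 6 of 10 B and plasma cell markers and 5 of 10 smooth muscle markers as Cy3-high, against 12.4% of all genes. The part of these differences in cell make-up in the values of the members was not tested.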

How the data were processed

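Gene expression was measured on 3 2-colour Agilent arrays, 1 each for liver, stomach and lung, from 500 ng of total RNA per channel, per the labels' protocols. Agilent Feature Extraction 8.5.1.1 read the scans, per the submitters' processing notes. The deposited scanner files of liver and stomach hold each spot's intensity and local background in both channels, and, per the file headers, the log10 ratio of red (Cy5) over green (Cy3) with a p-value from the error model of 1 spot. The authors' deposited table lists log10 ratios of selected spots for the 3 organs; lung spots were joined to the design by spot number, and all 6352 fell on gene spots.

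Background was corrected with normexp (offset 50) and dyes by loess within each array (limma 3.58.1, R 4.3.3; control spots at weight 0). Control and outlier spots were dropped, and a probe was kept if either channel was well above background, unless it was saturated in both. Spots, then probes of a gene, were averaged. Channel signals were scaled across arrays with the Aquantile method. The procedure was tested on simulated data. Where Cy3 was not well above background, the fold is given as a lower bound. It was taken against the higher of that spot's own Cy3 signal and the dimmest Cy3 signal well above background. This bound depends on the dye normalization and leaves out the spot's own error. Later steps used Python 3.11.15, pandas 2.3.3 and matplotlib 3.10.9.

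Names followed current symbols for 79.4% of 41174 probes. The symbol Sis of the intestinal list is also an older name of Pdgfb. No test was made, since each group is 1 sample: counts and medians stand beside those of all genes. All members were named; of each further cell cycle list, the 3 highest and lowest genes per array could be named, and of each cell type list the highest and the lowest. Members and lists were chosen with earlier results of these data known. Alternatives were another offset, the scanner software's ratios, median centring, 2 other filters on dim probes, the brightest probe, leaving out saturated spots, every spot listed, a 3-fold bound and a shorter promoter window.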

Additional observations from a re-analysis of the deposited data

Results flagged for a closer look

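For 11 members the liver and stomach ratios lay on opposite sides of 0 as reported, below it in liver and above it in stomach; with 1 array per organ the difference was not tested. The log2 ratios in liver and stomach were -0.19 and 0.61 for Ccna2, -0.12 and 0.22 for Foxm1, and -0.04 and 0.86 for Nek2. They were -0.06 and 1.32 for Aurkb, -0.09 and 0.54 for Cdca8, and -0.06 and 0.71 for Bub1b. For the exit genes they were -0.06 and 0.83 (Cdc20) and -0.08 and 1.14 (Ube2c). For the motors they were -0.02 and 0.43 (Kif11), -0.05 and 1.13 (Kif23) and -0.21 and 0.74 (Cenpe). Of the 11 liver ratios, that of Ccna2 alone exceeded its own error, 0.19 in size against 0.18. The liver sign turned for 7 of them with another way of processing. With median centring it was 0.12 for Ccna2 and 0.18 for Cdc20, and 0.00 for Foxm1. With the scanner software's ratios it was 0.42 for Aurkb, 0.40 for Kif11 and 0.25 for Kif23. With the brightest probe it was 0.15 for Cdca8, 0.14 for Kif11 and 0.04 for Cenpe. For Aurkb and Bub1b the liver Cy3 signal was not well above background, so the order of their liver channels cannot be read. The liver ratios of Nek2 and Ube2c stayed below 0 in the 7 alternatives, each within its own error as reported.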

How the results depend on the processing

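Over 7 other ways of processing the arrays, between 34 and 37 members lay above 0 in stomach and between 18 and 25 in liver, and no member was 2-fold Cy3-high in either organ. The number measured changed as well. With both channels required to be well above background it was 34 in stomach, with no change of sign there, and 31 in liver. The number of members 2-fold Cy5-high in stomach, 10 as reported, was 17 with an offset of 10, 23 with the scanner software's ratios, 19 with median centring and 15 with the brightest probe. The same share of all genes ran from 0.781% to 4.32%, and the Cy5-high part of all 2-fold calls in stomach was 38.2% as reported, 51.0% with the scanner software's ratios and 81.2% with median centring (liver 68.4%, 56.3% and 94.0%). With the scanner software's ratios the stomach median was 1.24, and 1 member was 2-fold Cy5-high in liver. Stomach exceeded liver for 30 to 37 of the members measured on both arrays, and for all 30 with both channels well above background on both. When every spot of a gene had to be listed, the stomach list held 16 members (2.79% of all genes) and the lung list 7 (3.99%), and at 3-fold the lung list held 4 (3.19%). In the shorter promoter window TTCGAA was found in 1 member and E2F in 0. The median of the further mitotic genes in liver turned to -0.02 and that of the CDK inhibitors in stomach to -0.07 with median centring, and the median of the replication genes in liver to -0.02 with the brightest probe. In stomach 2 of 256 single-member values changed sign (Cenpa with the brightest probe, Kif2c with median centring), in liver 25 of 247. The further mitotic genes 2-fold Cy5-high in stomach numbered 5 as reported and 9 to 26 under 4 alternatives, and the replication genes 10 and 17 to 23 under 3. Leaving out a replicate was not possible, and no paired analysis was possible because each organ has 1 array. The number of arrays limits the precision; negative control spots had median raw signals of 127 and 119 in Cy3 and 67.7 and 68.4 in Cy5 (liver, stomach), near those of the dimmest members.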
